A study of Homo sapiens with 18 samples.

Results

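Distal H3K4me3 loci are the places where this promoter mark was found away from every annotated start of a protein-coding gene. Overlapping H3K4me3 intervals were merged into loci, and a locus was kept when it was under 8 kb wide and lay more than 2 kb from every protein-coding transcription start site (TSS) in GENCODE 44. This gave 4072 distal loci of 16123 H3K4me3 loci. A further 12002 loci lay within 2 kb of a protein-coding TSS and served as the promoter loci for comparison, and 49 loci were distal but 8 kb or wider. The choice used position and width only, not the level of the mark or its response.

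Cut&Tag, in which an antibody directs a transposase to cut at the mark of interest, was performed for H3K4me3, H3K4me1, H3K27ac and H3K27me3 in MOLM-13 cells. MOLM-13 is an established acute myeloid leukemia line that carries a KMT2A rearrangement, and all groups are cultures of this single line. Cells received 100 nM PR-957 (ONX-0914), an inhibitor of the immunoproteasome subunit PSMB8, or the solvent DMSO for 72 h by the sample labels. The study's own text gives a shorter time in another place, so the time is uncertain. Each mark had 2 libraries per treatment, 16 in all, and the 2 IgG samples were not analysed here. Nothing in the labels says that replicates are separate cultures, so p-values measure the spread between these libraries, which may be technical.

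H3K4me3 is laid down by the KMT2 and SETD1 methyltransferases and is densest just downstream of active start sites, where CpG-rich DNA recruits the enzymes through CXXC domains. Away from coding promoters it occurs at start sites of non-coding RNAs, at tRNA genes read by RNA polymerase III, at unannotated promoters and, at a lower level, at strongly active enhancers. Enhancers typically carry H3K4me1 with H3K27ac, while H3K27me3 is the mark of Polycomb repression. In KMT2A-rearranged leukemia the fusion protein replaces part of a protein that normally belongs to an H3K4 methyltransferase complex.

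Counts in the widest interval of each H3K4me3 locus summed to 11314685 and 10633535 for DMSO. PR-957 libraries were shallower, with sums of 7643487 and 7720767. Over the other marks the totals ranged from 2644014 to 8400520 per library. Of 7 myeloid markers, 6 had an H3K4me3 locus over a TSS, at 15.5 to 40.3 CPM per kb (counts scaled to library size and interval length by edgeR's TMM method). MPO had none. GATA1, KLF1 and HBB, 3 erythroid markers, had none, whereas PAX5, BCL11B and COL1A1 of the B cell, T cell and stroma lists had a locus, at 5.57 to 13.1 CPM per kb.

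Sequences of called loci are shown first, because the response to PR-957 in H3K4me3 came down to a handful of sites. The 300 bases around the midpoint of the widest interval of the locus are given on the plus strand of hg38. They are shown for 4 of the called loci, all outside coding-gene exons. Capitals mark matches to an AP-1 site (TGANTCA) or to the core of the antioxidant response element (TGACNNNGC), on either strand.
NMRAL2P, chr3:185959997-185960296: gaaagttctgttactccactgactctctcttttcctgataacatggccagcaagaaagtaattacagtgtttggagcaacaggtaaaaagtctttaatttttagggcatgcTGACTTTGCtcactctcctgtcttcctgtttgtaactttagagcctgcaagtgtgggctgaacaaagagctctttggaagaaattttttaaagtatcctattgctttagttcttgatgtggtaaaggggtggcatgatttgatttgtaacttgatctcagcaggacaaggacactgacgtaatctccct
HDAC4 intron, chr2:239274471-239274770: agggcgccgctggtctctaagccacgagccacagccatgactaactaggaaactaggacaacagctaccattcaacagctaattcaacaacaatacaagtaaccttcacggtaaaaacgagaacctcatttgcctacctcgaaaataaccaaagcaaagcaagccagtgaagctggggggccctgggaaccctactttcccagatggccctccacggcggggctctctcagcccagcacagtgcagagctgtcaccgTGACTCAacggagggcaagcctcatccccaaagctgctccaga
TKT, 12727 bp from its TSS, chr3:53270407-53270706: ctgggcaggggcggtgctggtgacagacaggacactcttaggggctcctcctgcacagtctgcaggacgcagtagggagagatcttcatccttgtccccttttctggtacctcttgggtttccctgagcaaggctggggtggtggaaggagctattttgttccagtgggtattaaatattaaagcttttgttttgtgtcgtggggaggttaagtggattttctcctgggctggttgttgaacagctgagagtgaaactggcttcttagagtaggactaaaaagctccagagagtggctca
SSR1, 32400 bp from its TSS, chr6:7255345-7255644: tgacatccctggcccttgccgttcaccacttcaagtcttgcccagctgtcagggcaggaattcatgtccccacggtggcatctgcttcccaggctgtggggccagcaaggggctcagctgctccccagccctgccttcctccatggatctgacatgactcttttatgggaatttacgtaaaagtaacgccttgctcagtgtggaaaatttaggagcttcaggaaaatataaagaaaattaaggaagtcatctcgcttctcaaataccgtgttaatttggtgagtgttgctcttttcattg
The NMRAL2P window held 1 antioxidant response element core, TGACTTTGC, and the HDAC4 window held 1 AP-1 match, TGACTCA. The TKT and SSR1 windows held neither. The element is bound by NFE2L2 with small MAF proteins, and AP-1 sites by JUN and FOS dimers.

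A pair of the densest distal loci are shown as examples of dense loci, with every CpG dinucleotide in capitals.
SOX4, 3485 bp from its TSS, chr6:21588070-21588369: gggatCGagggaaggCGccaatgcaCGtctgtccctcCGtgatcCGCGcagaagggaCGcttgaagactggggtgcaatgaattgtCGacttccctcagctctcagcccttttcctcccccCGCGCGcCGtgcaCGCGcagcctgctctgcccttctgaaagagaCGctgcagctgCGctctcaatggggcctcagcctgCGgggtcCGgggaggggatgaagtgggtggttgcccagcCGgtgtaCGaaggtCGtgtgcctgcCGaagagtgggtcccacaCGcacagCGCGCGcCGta
LINC00662 start, chr19:27793723-27794022: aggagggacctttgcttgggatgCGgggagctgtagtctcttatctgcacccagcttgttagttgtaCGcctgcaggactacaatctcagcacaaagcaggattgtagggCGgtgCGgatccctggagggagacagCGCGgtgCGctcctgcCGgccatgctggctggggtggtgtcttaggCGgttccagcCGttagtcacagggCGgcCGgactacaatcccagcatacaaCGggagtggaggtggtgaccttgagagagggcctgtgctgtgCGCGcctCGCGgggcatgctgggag
These windows held 27 and 17 CpG dinucleotides, while the dense loci near CNTNAP3C and KCNRG held 10 and 12. The NMRAL2P, HDAC4, TKT and SSR1 windows held 1, 10, 3 and 6, and that of the called locus near NEFL held 17, so the CpG counts of dense and called loci overlapped. The median was 7 over all distal windows and 17 over all promoter windows.

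Distal loci were weaker than promoter loci. Their median width was 2431.5 bp, and that of promoter loci under the same 8 kb limit was 3793 bp, as a description, since the rule used width. The median density of distal loci was 3.97 and 3.47 CPM per kb with DMSO and 4.20 and 3.64 with PR-957. Promoter loci had medians of 15.9, 16.2, 15.7 and 16.1 CPM per kb in the same order. No library overlapped between the classes, and within each treatment replicate 1 was the higher library for distal loci. On the log2 scale (CPM per kb plus 0.1) the distal median was lower by a mean of -2.04 ± 0.14 (SD, n = 4 libraries), a 4.11-fold difference. An exact two-sided sign-flip test over the 4 libraries gave p = 0.125, the smallest p that 4 libraries allow. The ranges crossed widely at the level of single loci. Among distal loci, 270 (6.63%) were denser than the promoter median, and 1281 promoter loci were weaker than the distal median.

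**Figure D1:**
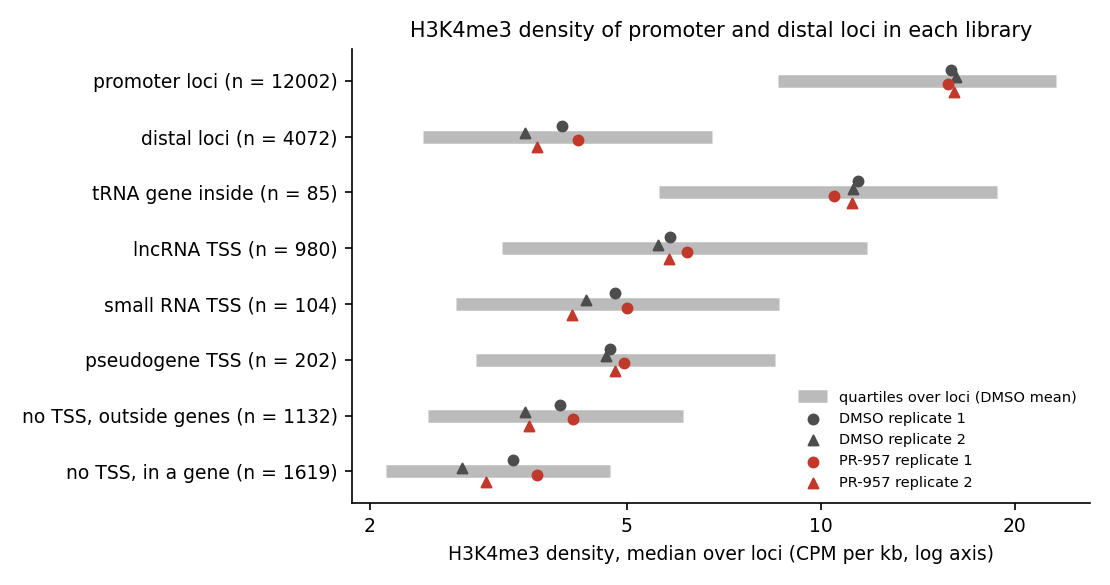
Median H3K4me3 density of promoter loci, all distal loci and classes of distal loci, in CPM per kb on a log axis. Circles and triangles are the 2 replicates of each treatment (DMSO grey, PR-957 red), and grey bars span the quartiles over loci of the DMSO mean; every distal class lies left of the promoter loci, and loci with a tRNA gene come nearest, with medians between 10.5 and 11.4.

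Many distal loci were found at starts of non-coding genes. Of the 4072, 1321 (32.4%) lay within 2 kb of the TSS of a lncRNA, small RNA, pseudogene or other non-coding transcript. The share was 32.7% for promoter loci and 32.8% for all H3K4me3 loci, so it does not set distal loci apart. By the nearest non-coding TSS, 980 distal loci were at a lncRNA, 202 at a pseudogene, 104 at a small RNA and 35 at another type. Where several such TSSs lay inside a locus, the first by coordinate set the type, so a locus can hold starts of other types too. The remaining loci had no TSS within 2 kb, with 1619 inside a gene and 1132 outside genes. The DMSO median density was 5.68 CPM per kb at lncRNA starts, 4.54 at small RNA starts, 4.45 at pseudogene starts, 3.71 outside genes and 3.05 inside genes. The small RNA and pseudogene medians exchanged places between libraries, so these neighbours did not differ beyond the spread. The share at a non-coding TSS rose with distance from coding genes, from 23.4% of 646 loci at 2 to 5 kb to 46.5% of 428 loci beyond 100 kb. Over the same bands the share inside a protein-coding gene went from 61.8% to 7.01%.

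The 6 densest distal loci had a DMSO mean of 45.0 CPM per kb or more, above most promoters, and 3 of them lie on chromosome 8. The densest, at chr8:66921552-66927891, had 54.7 and 58.9 CPM per kb in DMSO and 53.4 and 57.3 in PR-957. It is named for SNORD87, a small nucleolar RNA gene, the first non-coding start inside it by coordinate. It was followed by lncRNA starts near CHD7 (51.9 ± 1.35 SD, n = 2) and within ASAP1 (47.0 ± 0.873), and by a lncRNA start at chr9:62798853-62803309 (46.6 ± 2.77). The last sequence has 2 near-identical copies elsewhere in hg38, so its count is uncertain. The locus 3485 bp from SOX4, a transcription factor gene of progenitor cells, had 45.7 and 46.7 CPM per kb in DMSO and 38.7 and 42.3 in PR-957. The start of LINC00662 had 46.1 and 43.9 in DMSO and 42.3 and 44.3 in PR-957. None of these 6 passed the test for PR-957, with adjusted p from 0.568 to 0.984.

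In the other classes the densest loci were a small RNA start whose nearest coding gene is KCNRG (38.1 ± 0.709 CPM per kb in DMSO, SD, n = 2) and the pseudogene start C19orf48P (26.6 ± 0.681). The second pseudogene locus lay within CLTCL1 (22.9 ± 2.03). Inside genes, the second locus after SOX4 lay in CRYBG1 (37.0 ± 2.07). Outside genes, the densest were a locus 62918 bp from STX11 (35.3 ± 2.56), which holds a tRNA gene, and a locus 52983 bp from RREB1 (35.1 ± 1.87). These loci are all CpG-dense by the definition used below.

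Chromosome 8 held 279 distal loci, the most per promoter locus of any autosome, at 67.2 distal for every 100 promoter loci. Promoter loci on chromosome 8 had a DMSO median of 28.0 CPM per kb against 15.9 on the other chromosomes. The distal median was 3.37 against 3.74. Copy number was not measured here, and its part in these values was not tested.

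tRNA genes were a separate group among the distal loci. RefSeq tRNA genes lay inside 85 distal loci, which held 117 of them, and 34 of these loci were on chromosome 6. RNA polymerase III transcribes tRNA genes, so their starts are not in the protein-coding list that set the rule. Their median density was 11.4 and 11.2 CPM per kb in DMSO and 10.5 and 11.2 in PR-957. Each library was thus above the 3.47 to 4.20 of all distal loci. All 85 (100%) held a CpG-dense window, 56 overlapped H3K27ac and only 24 (28.2%) overlapped H3K4me1. The 46 promoter loci with a tRNA gene were denser, at 24.3 CPM per kb, and 97.8% of them overlapped H3K27ac.

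The densest tRNA loci were near TRIM55 (44.5 ± 1.16 CPM per kb, SD, n = 2) and STX11 (above), and were added after their values were seen. None of the 85 passed the test for PR-957, where 0.198% of all H3K4me3 loci did, too few to read the 0 against. At an unadjusted p under 0.05 there were 10 of the 85 and 200 of all 4072 distal loci. The smallest p was at TRD-GTC2-10 near DHX37, with 16.03 and 18.43 CPM per kb in DMSO and 13.1 and 14.8 in PR-957 (log2 fold change -0.30, SE 0.09, adjusted p = 0.216). The libraries of the treatments did not overlap there, but the difference did not pass the correction. The gene with the most tRNA loci was ZNF184, the nearest coding gene of 10 distal loci that all hold a tRNA gene, in the histone and tRNA gene cluster of chromosome 6.

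CpG content divided the distal loci. A CpG-dense window, 200 bases with a GC content of 50% or more and an observed over expected CpG ratio of 0.6 or more, was found in 2641 distal loci (64.9%) and in 95.4% of promoter loci. The median CpG ratio over the whole interval was 0.335 in distal and 0.565 in promoter loci. The 1431 distal loci with no such window had a median of 2.75 CPM per kb, against 4.56 for the others. Of these 1431, 94.7% overlapped H3K4me1, 87.0% overlapped H3K27ac and 0.769% overlapped H3K27me3. With a CpG-dense window the shares were 64.0%, 72.0% and 17.0%. All groups share the same libraries, so these shares are a description and were not tested.

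Most distal loci carried the pair of marks found at active enhancers. H3K27ac overlapped 3147 (77.3%), H3K4me1 3045 (74.8%) and H3K27me3 459 (11.3%), by at least 1 base. For promoter loci the shares were 84.7%, 54.8% and 16.8%, so H3K4me1 was the mark more frequent at distal loci. H3K4me1 with H3K27ac and no H3K27me3 was the largest class, with 2523 loci. H3K27ac alone was found at 466 loci, which had the highest median density of any combination, 9.35 CPM per kb in DMSO. Of these 466, 57.7% were at a non-coding TSS and 92.3% were CpG-dense. H3K4me1 alone was found at 306 loci, with the lowest median, 2.31 CPM per kb. No other mark overlapped 318 loci, H3K27me3 alone was found at 188, and all 4 marks met at 103. Depth per mark differed, and each share falls when weakly covered loci of the other mark are left out (given with the processing alternatives).

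Short motifs of blood transcription factors were searched on both strands in the 300 bases at the centre of the widest interval of each locus. AP-1 (TGANTCA) was found in 11.5% of distal windows, 4.77% of promoter windows and 6.46% of all H3K4me3 windows. RUNX (TGTGGTT) was found in 6.85% of distal and 3.53% of promoter windows. CEBP (TTGCNNAA) was found in 14.0% and 8.66%, and the SPI1-type ETS site (GAGGAAGT) in 3.905% and 1.95%. The order was the other way for the NRF1-type site (GCGCANGCG), at 1.87% and 3.91%, and for the ETS core (CCGGAAG), at 4.44% and 6.19%. The E-box (CACGTG) was close between them, at 5.57% and 5.29%. The median GC content of the windows was 52.7% for distal and 61.0% for promoter loci, so base composition differs between the groups compared. A match is a run of letters and not a measured binding site.

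Of 29 myeloid transcription factors, 18 were the nearest coding gene of 53 distal loci, and RUNX1 had 8 of them, MYC 6, IKZF1 5 and CEBPA 4. Almost all of these 53 carried H3K27ac (96.2%) and H3K4me1 (98.1%). Their median density was 3.40 CPM per kb, and the densest was a lncRNA start 67038 bp from IRF8, a regulator of monocyte fate, at 13.3 ± 0.774 (SD, n = 2). Of 21 KMT2A targets, 6 had 16 loci, and the densest was the start of LINC01798 near MEIS1 at 19.4 ± 0.161 CPM per kb. MEF2C had 6 of these loci, PBX3 4, MEIS1 2 and FLT3 2. Of the HOXA genes in the list, only HOXA3 was nearest to a distal locus.

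The other lists gave fewer loci. NF-kB, AP-1 and cytokine genes had 13, with the densest 6441 bp from JUND (25.7 ± 0.329 CPM per kb). KMT2A complex, H3K4 and Polycomb enzymes had 11, led by the start of LINC01003 near KMT2C (25.05 ± 1.49). Myeloid surface and granule genes had 9, led by a lncRNA start 12162 bp from CD33 (13.5 ± 0.469). Interferon response genes had 8, led by LINC02427 near IRF2 (10.5 ± 0.339). NFE2L2 and proteasome stress genes had 7, led by a lncRNA start near ATF3 (10.4 ± 2.21). Lymphoid and erythroid genes had 5, led by a locus 193791 bp from BCL11B (7.36 ± 0.323). Across all coding genes RREB1, which encodes a zinc finger protein that binds RAS-responsive elements, was nearest to the most distal loci, 12, and all 12 carried H3K27ac and H3K4me1. JMJD1C, an H3K9 demethylase gene, followed with 10. These genes were picked by their counts.

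PR-957 changed H3K4me3 at few distal loci. The mark rose at NMRAL2P, near GPR55, ZFPM2-AS1, NEFL and TKT and in an intron of HDAC4, and fell at a single locus near SSR1. By edgeR's quasi-likelihood test with Benjamini-Hochberg adjustment over all H3K4me3 loci, 7 of 4072 distal loci (0.172%) passed an adjusted p of 0.05, with 6 higher and 1 lower. Over all 16122 loci tested the share called was 0.198%, with 0.167% higher and 0.031% lower, and at promoter loci it was 0.208%. The distal share was therefore near the background. DESeq2 called 1 of the 3022 distal loci to which it gave an adjusted p, ZFPM2-AS1 (0.0343% called over all loci). Leaving out DMSO replicate 1 left 3 calls, and leaving out DMSO replicate 2 left 2. With PR-957 replicate 1 left out 2 remained called, and with its replicate 2 left out 5 did.

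NMRAL2P showed the largest fold change. It is a transcribed relative of NMRAL1 that has been described as a target of NFE2L2, the transcription factor of the oxidative and electrophile stress response. The locus, chr3:185959015-185961627, spans its start and lies 20912 bp from the TSS of TRA2B, the nearest coding gene. It had 10 and 4 reads in DMSO and 45 and 44 reads in PR-957, or 0.881 and 0.382 CPM against 5.78 and 5.74 CPM. The mark was thus close to the limit of counting in both DMSO libraries. It was weak in the PR-957 libraries too, at 2.55 and 2.54 CPM per kb, below the distal medians of 4.20 and 3.64. The log2 fold change was 3.15 (SE 0.65, adjusted p = 0.00136), 8.86-fold. Both DMSO values were below the minimum of the count filter, so the locus was tested through the PR-957 libraries, and with no filter the adjusted p was 0.00151. With so few reads in DMSO the size of the fold is uncertain, and the call was lost without DMSO replicate 1 (adjusted p = 0.0610) or DMSO replicate 2 (adjusted p = 0.681). DESeq2 gave the locus no adjusted p, and requiring a mean count of at least 50 left it out.

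ZFPM2-AS1, a lncRNA antisense to the GATA cofactor gene ZFPM2, had the smallest p. The locus, chr8:106058284-106061949, covers a start of the lncRNA, and the nearest coding TSS is that of OXR1, 208195 bp away. It had 19.9 and 24.3 CPM in DMSO and 45.0 and 38.5 CPM in PR-957. Both treated libraries were above both controls. The log2 fold change was 0.92 (SE 0.13, adjusted p = 2.37e-08), and this was the only distal locus called under all 13 alternatives, with adjusted p up to 0.00472.

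The GPR55 locus, chr2:230906685-230911016, lies at the end of the gene of this lipid-sensing receptor, 14210 bp from its TSS, where the lncRNA ENSG00000230385 starts. It had 14.6 and 11.4 CPM in DMSO and 28.5 and 20.9 CPM in PR-957. The groups did not overlap, and PR-957 replicate 1 was well above replicate 2. The log2 fold change was 0.92 (SE 0.18, adjusted p = 0.000712). The adjusted p was 0.56 when PR-957 replicate 1 was left out and 0.284 when DMSO replicate 2 was, so either library decided the call. Its centre window, which lies in an exon and is not printed, held 2 AP-1 matches and 2 antioxidant response element cores.

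The locus near NEFL, the neurofilament light chain gene, lies 42307 bp from its TSS at the start of the lncRNA ENSG00000288055, at chr8:24999028-25002269. It had 23.1 and 19.5 CPM in DMSO and 37.5 and 30.5 CPM in PR-957, with no overlap. The log2 fold change was 0.68 (SE 0.14, adjusted p = 0.00199). Leaving out DMSO replicate 2 gave an adjusted p of 0.514, and leaving out PR-957 replicate 1 gave 0.543. It carried all 4 marks, and H3K27me3 was lower there (log2 fold change -0.31, SE 0.10, adjusted p = 0.0486). That adjusted p is just inside the threshold, and H3K27me3 calls depended on the scaling, as given below. The NEFL locus was the only distal locus called both for H3K4me3 and for another mark.

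In HDAC4, a class IIa histone deacetylase gene, the locus chr2:239272162-239276836 lies in an intron 21694 bp from a TSS. It had 31.5 and 31.7 CPM in DMSO and 44.3 and 47.0 CPM in PR-957, with little spread within either treatment. The log2 fold change was 0.53 (SE 0.12, adjusted p = 0.00537). The call was lost when any single library was left out, with adjusted p from 0.0580 to 0.255. H3K27ac at this locus had a log2 fold change of 0.51 (SE 0.17, unadjusted p = 0.00326, adjusted p = 0.35), which did not pass.

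The locus chr3:53268779-53271962 lies outside genes, and its nearest coding TSS is that of TKT, transketolase of the pentose phosphate pathway. It had 21.0 and 19.8 CPM in DMSO and 30.1 and 31.2 CPM in PR-957. The groups did not overlap, but the call was the weakest of the 7 (log2 fold change 0.58, SE 0.15, adjusted p = 0.0461) and was lost whichever library was left out, with adjusted p from 0.202 to 0.746. TKT was the only member of the NFE2L2 and proteasome stress list with a call, 1 of 7 loci. The locus near TXNRD1 had 0.71 and that near HMOX1 0.19 on the log2 fold change scale, and neither passed.

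The only lower locus, chr6:7253194-7257450, lies outside coding genes, 32400 bp from the TSS of SSR1. It had 31.8 and 26.3 CPM in DMSO and 17.3 and 17.1 CPM in PR-957. The treated libraries were nearly equal and below both controls. The log2 fold change was -0.76 (SE 0.16, adjusted p = 0.00168), and DESeq2 did not call it (adjusted p = 0.347). Leaving out DMSO replicate 1 raised the adjusted p to 0.365, and leaving out PR-957 replicate 1 raised it to 0.0608. H3K4me1 there had -0.35 (SE 0.11, unadjusted p = 0.00333, adjusted p = 0.0935) and H3K27ac 0.05, and neither passed. Below the call, the next lower loci were a lncRNA start near ANXA2R (log2 fold change -0.33, SE 0.09, adjusted p = 0.0723) and a locus 22565 bp from INSR (-0.39, SE 0.11, adjusted p = 0.141).

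None of the called loci had a near-identical copy elsewhere in hg38, and 130 of all distal loci (3.19%) had one. All 7 overlapped H3K4me1 and 6 overlapped H3K27ac, GPR55 being the exception, where 74.8% and 77.3% of all distal loci did, so these counts do not set them apart. At ZFPM2-AS1, NMRAL2P, NEFL and HDAC4 the H3K27ac log2 fold change was 0.40, 0.57, 0.60 and 0.51, at TKT it was -0.16, and none passed the adjusted test. At the first 4 their H3K4me1 values of 0.05, 0.25, -0.27 and -0.11 had no common direction. AP-1 matches were in the centre windows of 4 of the 7 and antioxidant response element cores in 3 of the 7. MEIS matches (TGACAG) were in 4 of the 7 as well. Over all distal windows the shares were 11.5%, 13.2% and 19.1% in that order. With 7 loci picked by their p-values, these counts are a description.

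Of the distal loci of the 8 gene lists, only the TKT locus passed the test, 1 of 7 in its list. Of all distal loci 0.172% passed, and of all H3K4me3 loci 0.198%. A single call is too few to read against these shares. The median log2 fold change was 0.11 for KMT2A targets, -0.01 for myeloid transcription factors, -0.13 for myeloid surface and granule genes and -0.04 for lymphoid and erythroid genes. It was 0.19 for NFE2L2 and proteasome stress genes, -0.10 for NF-kB, AP-1 and cytokine genes, -0.06 for interferon response genes and -0.02 for KMT2A complex, H3K4 and Polycomb enzymes. The same median was 0.05 over all distal loci and -0.00101 over all H3K4me3 loci. Among myeloid factors, the loci near MYC ranged from -0.29 to 1.23 and those near RUNX1 from -0.32 to 0.51, and the smallest adjusted p was 0.231, near GATA2.

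Fold changes at distal loci depended on count. In 1205 loci with a mean count under 50, the median log2 fold change was 0.27 and 75.1% of loci were positive. In 297 loci with a mean count of 500 or more, the median was -0.03 and 37.0% were positive. Promoter loci behaved alike, with medians of 0.31 and -0.02 in the same bands. Loci made of 1 interval had a median of 0.26 and loci of 4 or more intervals one of -0.01. The distal median of 0.05 turned to -0.02 with cyclic loess scaling, to -0.01 when DMSO replicate 2 was left out and to -0.02 when PR-957 replicate 1 was. PR-957 libraries were the shallower ones, and the part of depth in this trend was not tested.

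The share of H3K4me3 counts in distal loci was 7.39% and 6.90% in DMSO and 7.53% and 7.06% in PR-957. Replicate 1 was higher than replicate 2 within each treatment, by 0.483 and 0.475 percentage points. The treatments differed by less, 7.15% ± 0.341 against 7.30% ± 0.336 (SD, n = 2 each), a difference of 0.152. Within replicate numbers the difference was 0.148 and 0.156. By exact permutation of the libraries, two-sided, p was 0.667, where 2 against 2 libraries cannot go below 0.333. The difference had the opposite sign without DMSO replicate 2 (-0.0894) or PR-957 replicate 1 (-0.0856).

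H3K27me3 was the mark with most calls over distal H3K4me3 loci. Of 412 H3K27me3 loci tested that overlapped a distal locus, 92 (22.3%) were lower with PR-957 and 0 were higher. Over all 12355 H3K27me3 loci tested, 4.03% were called, 3.86% lower and 0.17% higher. The loci over distal H3K4me3 were broader, with a median width of 7930 bp against 2823 bp, and had more counts, with a median of 177.0 against 28.25, than all H3K27me3 loci. In loci with a mean count of 1000 or more, 69 of 104 over distal H3K4me3 were called and 172 of 364 others. Where it was at least 50 and under 200, 3 of 103 and 54 of 2502 were called. The calls were small: 6 of the 92 reached a 1.5-fold change. The direction depended on the scaling. With library size only, 45 were lower and 24 higher (1.4% and 2.5% over all H3K27me3 loci), and the median over all loci went from 0.03 to 0.24 on the log2 scale. With cyclic loess scaling 44 were lower and 22 higher. Without DMSO replicate 1 the count was 30 and without DMSO replicate 2 it was 35, all lower.

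**Figure D2:**
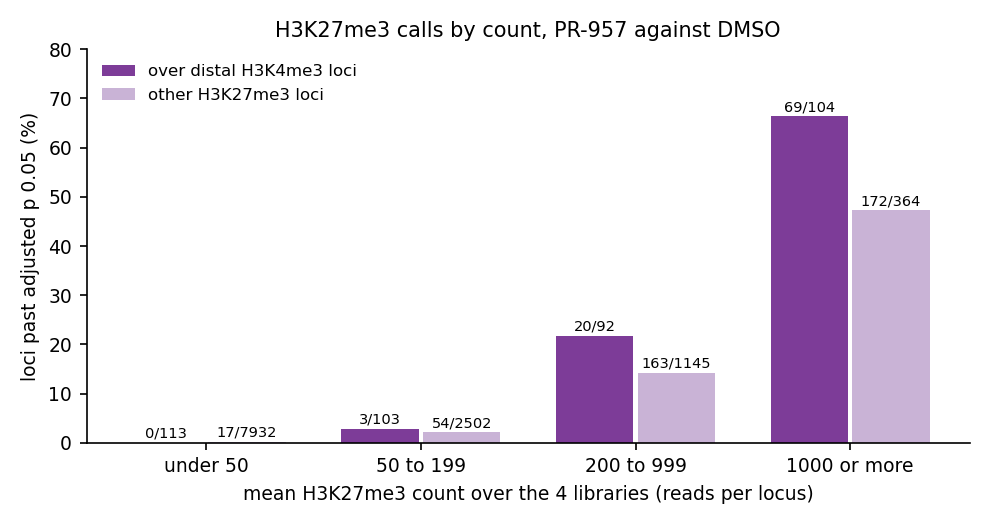
Share of H3K27me3 loci past an adjusted p of 0.05, in percent, by mean count, for loci that overlap a distal H3K4me3 locus (dark) and all other H3K27me3 loci (light), with calls over loci tested above each bar. The share goes up with the count in both, from 0 of 113 and 17 of 7932 to 69 of 104 and 172 of 364.

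The lowest p among these were at broad domains around developmental genes. Their counts are of the whole domains, 22339, 37962 and 25928 bp wide in the order below. They thus include sequence outside the distal H3K4me3 loci, which can hold coding starts. In the domain that overlaps the distal locus near SKIDA1, chr10:21498328-21520667, H3K27me3 had 504 and 469 CPM in DMSO and 288 and 287 CPM in PR-957 (log2 fold change -0.76, SE 0.08, adjusted p = 4.15e-18). At LINC00461 near MEF2C, chr5:88659013-88696975, the domain had 3429 and 3249 CPM in DMSO and 2274 and 2219 CPM in PR-957 (-0.57, SE 0.06, adjusted p = 1.01e-17). At LINC01305 near SP9, chr2:174320404-174346332, it had 1395 and 1356 CPM in DMSO and 944 and 904 CPM in PR-957 (-0.57, SE 0.06, adjusted p = 1.32e-15). The controls were above the treated libraries at each, and all 3 were called in the same direction under 12 of 12 alternatives. The domains overlapped 1, 2 and 2 distal H3K4me3 loci. At 1 of them in each domain H3K4me3 had log2 fold changes of 0.13, 0.13 and 0.10, with adjusted p from 0.925 to 0.981.

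H3K4me1 calls over distal loci were mostly lower. Of 2798 H3K4me1 loci tested over distal H3K4me3, 35 (1.25%) were called, 33 lower and 2 higher, against 1.55% of all 34927 H3K4me1 loci, 0.764% lower and 0.79% higher. The median log2 fold change was -0.15 over distal loci and 0.01 over all loci, and the former loci had a median mean count of 332.25 against 80.75. The split did not hold under another scaling: with cyclic loess there were 8 lower and 9 higher (0.183% and 0.501% over all loci). DESeq2 gave an adjusted p to only 785 of the 2798 loci, and 11 of its 23 calls were among the 35. Over all H3K4me1 loci with an adjusted p it called 53 of 1747. Without DMSO replicate 2 there were 0 calls by edgeR, with 752 loci at an unadjusted p under 0.05, while DESeq2 called 23 on all libraries. Leaving out DMSO replicate 1 gave 11 calls, 9 of them among the 35, and leaving out PR-957 replicate 1 gave 6, of which 2 were among the 35. Leaving out PR-957 replicate 2 gave 31, 21 lower and 10 higher, of which 7 were among the 35 (667 of 34930 called over all loci). With library size only there were 23 lower and 10 higher (627 of 34927 called over all loci). The lowest p was 326819 bp from FGF9, where H3K4me1 had 49.3 and 57.7 CPM in DMSO and 23.8 and 35.4 CPM in PR-957 (-0.82, SE 0.15, adjusted p = 0.00127). It was followed by loci near JCAD (-0.57, SE 0.12, adjusted p = 0.00549) and RRM2B (-0.54, SE 0.12, adjusted p = 0.00941). H3K4me3 at these had -0.23, -0.11 and -0.09, and none passed.

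H3K27ac had few calls over distal loci. Of 3088 H3K27ac loci tested, 6 (0.194%) were called, 4 lower and 2 higher, against 0.131% of all loci, 0.108% lower and 0.0229% higher. DESeq2 gave an adjusted p to only 206 of these 3088, and over all H3K27ac loci it called 18 of 2129. There were 0 calls by edgeR with cyclic loess scaling or without PR-957 replicate 2, each with 234 loci at an unadjusted p under 0.05, and DESeq2 called 1. Leaving out each of the other 3 libraries in turn gave 2 calls. Those without DMSO replicate 1 shared 0 with the 6, and those without DMSO replicate 2 or PR-957 replicate 1 were both among them. An H3K27ac locus of 6729 bp, chr6:27828706-27835435, overlaps the distal locus 2202 bp from the TSS of the histone gene H4C12. It extends past the distal locus and may hold that TSS. There H3K27ac had 175 and 161 CPM in DMSO and 127 and 119 CPM in PR-957 (-0.45, SE 0.09, adjusted p = 0.00256). In ASAP1 it had 61.1 and 51.7 CPM in DMSO and 32.1 and 33.1 CPM in PR-957 (-0.80, SE 0.17, adjusted p = 0.00902). In PRDM13, a zinc finger gene of neural development, it rose from 20.7 and 19.4 CPM to 36.5 and 40.2 CPM (0.94, SE 0.22, adjusted p = 0.0219). H3K4me3 at these had adjusted p from 0.546 to 0.987.

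Changes in H3K4me3 and in the other marks were weakly related across distal loci. Pearson's r of the log2 fold changes was 0.16 with H3K4me1 (3045 loci), 0.07 with H3K27ac (3146) and -0.02 with H3K27me3 (444). Loci are not independent replicates, and these values describe 2 libraries per treatment and mark.

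At the edges of the rule, with densities as DMSO means in CPM per kb, the members nearest to a TSS were 2001 bp from A1BG (1.86) and 2010 bp from NFIA (5.01), and the loci just left out were 2000 bp from SMG9 (3.52) and 1999 bp from HECW2 (2.97). The widest members spanned 7998 bp (21.1) and 7970 bp (4.95), and the narrowest left out for width spanned 8074 bp (9.69) and 8082 bp (18.2). Within 2.5 kb of a TSS lay 125 members.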

How the data were processed

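Cut&Tag libraries of MOLM-13 cells were aligned to hg38 by the authors. Their processing notes name Trimmomatic 0.39, Bowtie2 2.2.5, Picard 2.27.1, SAMtools 1.7, SEACR 1.3 and deepTools 3.5.1. The deposited values are raw read counts per interval, 1 column per library, over intervals shared by the 4 libraries of a mark. The counter, the handling of duplicates and the library behind each interval are not given in the sources used here. Intervals overlap one another, so the widest interval of each locus was counted. Coordinates of loci are printed as listed in the files, and those of sequence windows count from 1.

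Counts were tested per mark over all loci with edgeR 4.0.16 (R 4.3.3): filterByExpr with a minimum count of 10, TMM, glmQLFit and glmQLFTest on treatment, Benjamini-Hochberg adjustment at 0.05. Standard errors were taken from the quasi-F statistic. The fit was tested on simulated data. DESeq2 1.42.0 was an alternative. Genes came from GENCODE 44, tRNA genes from RefSeq (GRCh38.p14), and copies (95% identity over 50% of the interval) from minimap2 2.31. Exact tests used Python 3.11.15.

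Named loci were up to 6 higher and 6 lower past the threshold with libraries that do not overlap, the 6 densest, the 2 densest of each class, the densest per gene list, the 3 smallest p per other mark and those at the edges of the rule. The next lower loci (ANXA2R, INSR), the tRNA loci and the genes singled out within lists were added after their values were seen. Members, lists and motifs were chosen with earlier results of these data known.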

Additional observations from a re-analysis of the deposited data

How the results depend on the processing

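Settings are those listed for the tests, and cyclic loess scaling was chosen after seeing the data. With only the first TSS of each gene in use, 6132 loci were distal. Requiring 50% of the locus to be covered gave shares of 73.4% for H3K4me1, 74.2% for H3K27ac and 9.75% for H3K27me3, and a mean count of at least 50 for the other mark gave 69.7%, 55.4% and 8.10%. The share at a non-coding TSS was 25.9% with the TSS inside the locus and 29.4% with it within 1 kb. DESeq2 called 1 locus for H3K4me3, 23 for H3K4me1 and 1 for H3K27ac, of the 3022, 785 and 206 to which it gave an adjusted p. Cyclic loess gave 17 calls for H3K4me1 and 0 for H3K27ac. A change of at least 1.5-fold was reached by 11 of the called H3K4me1 loci and 6 of the H3K27me3 loci. Leaving out a library gave 2 to 5 calls for H3K4me3, 0 to 31 for H3K4me1, 0 to 2 for H3K27ac and 30 to 111 for H3K27me3. For the share of counts it gave differences from -0.0894 to 0.393 percentage points, negative without DMSO replicate 2 (-0.0894) or PR-957 replicate 1 (-0.0856). The causes were not tested.

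Replicate numbers recur in both treatments, but 2 pairs per mark cannot show that they pair the samples. With the replicate block the calls were 9 for H3K4me3, 44 for H3K4me1, 4 for H3K27ac and 92 for H3K27me3. Correlations of same-numbered deviations were 0.174, 0.035, -0.012 and -0.004 over the 4 marks. Of 115 values of the 9 named H3K4me3 loci under alternatives, 90 kept the side of the threshold, 23 lost the call, 2 gained it and 0 changed direction. The 90 include values of ANXA2R and INSR, which were not called and stayed so. Of 13 alternatives, ZFPM2-AS1 was called in 13, GPR55, NEFL and SSR1 in 10 each, HDAC4 in 8 and TKT in 6. NMRAL2P was called in 9 of the 11 that gave it an adjusted p. Depth limits weak loci: 1205 distal loci had a mean count under 50.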
